A study of Mus musculus with 9 samples.

Results

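The genes described here are 10 protein-coding imprinted genes of the mouse: Magel2, Ndn, Mkrn3, Snrpn, Peg3, Usp29, Nnat, Plagl1, Zdbf2 and Dlk1. They were taken as a named list, which was chosen with earlier results of these data known. All 10 were found among the 37620 gene identifiers of the count files and were among the 15069 genes tested. Ribosome-associated RNA was isolated from parvalbumin interneurons (PV INs) of CA3/CA2 and sequenced in 5 samples from mice that had received a non-target shRNA (shNT) and 4 samples from mice that had received an shRNA against Ablim3 (shRNA). All mice carried PV-Cre and a Cre-dependent HA tag on the ribosomal protein Rpl22, so the tag depends on Cre expression from the parvalbumin gene. Lentivirus was injected into the DG of mice that were 2 months old, tissue of CA3/CA2 was collected 2 weeks later, and each sample was a pool of 6 mice of both sexes. The shRNA was thus expressed in the DG, whereas the RNA was isolated by the ribosome tag in CA3/CA2, where DG mossy fibers contact PV INs. The comparison asks which mRNAs isolated in this way differ after Ablim3 is targeted in the DG. Markers of other cell types were detected in this RNA too, as given below. No label ties the samples to separate days or litters, so the tests measure the spread between these pooled samples.

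An imprinted gene is transcribed mainly from the copy inherited from a single parent, because nearby control regions are methylated differently in egg and sperm. All of the genes listed are expressed from the paternal copy in mouse brain. Many paternally expressed genes act on growth, feeding and maternal behavior, and loss of the paternal copies of the cluster that holds MAGEL2, NDN, MKRN3 and SNRPN is the genetic basis of Prader-Willi syndrome. The counts do not separate the parental copies, so they give total levels only.

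Levels are given as CPM, the usual depth-scaled counts, after TMM normalization, and each fold change is that of the shRNA over the shNT samples. To be called, a gene had to change by 1.5-fold or more with an FDR under 0.05 (edgeR quasi-likelihood test, Benjamini-Hochberg adjustment over all genes tested). Magel2 was the only member called, and it was upregulated, which makes 1 of 10 members against 1.74% of all genes tested. No member was called downregulated, against 0.0133% of all genes. With an FDR between 0.05 and 0.1 and a change past 1.5-fold stood Peg3, Zdbf2 and Plagl1 on the higher side (10.9% of all genes) and Snrpn on the lower side (4.25%). At an unadjusted p under 0.05 there were 5 members with higher and 1 with lower levels, against 20.7% and 13.4% of all genes. The log2 fold changes (log2FC, given below with the standard error SE and the edgeR quasi-likelihood FDR) of the members had a median of 0.60, with 6 positive and 4 negative. Over all genes tested the median was 0.11, with 8732 positive and 6337 negative values. The list was chosen with earlier results known, so these shares describe the members and do not test them as a set.

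**Figure D1:**
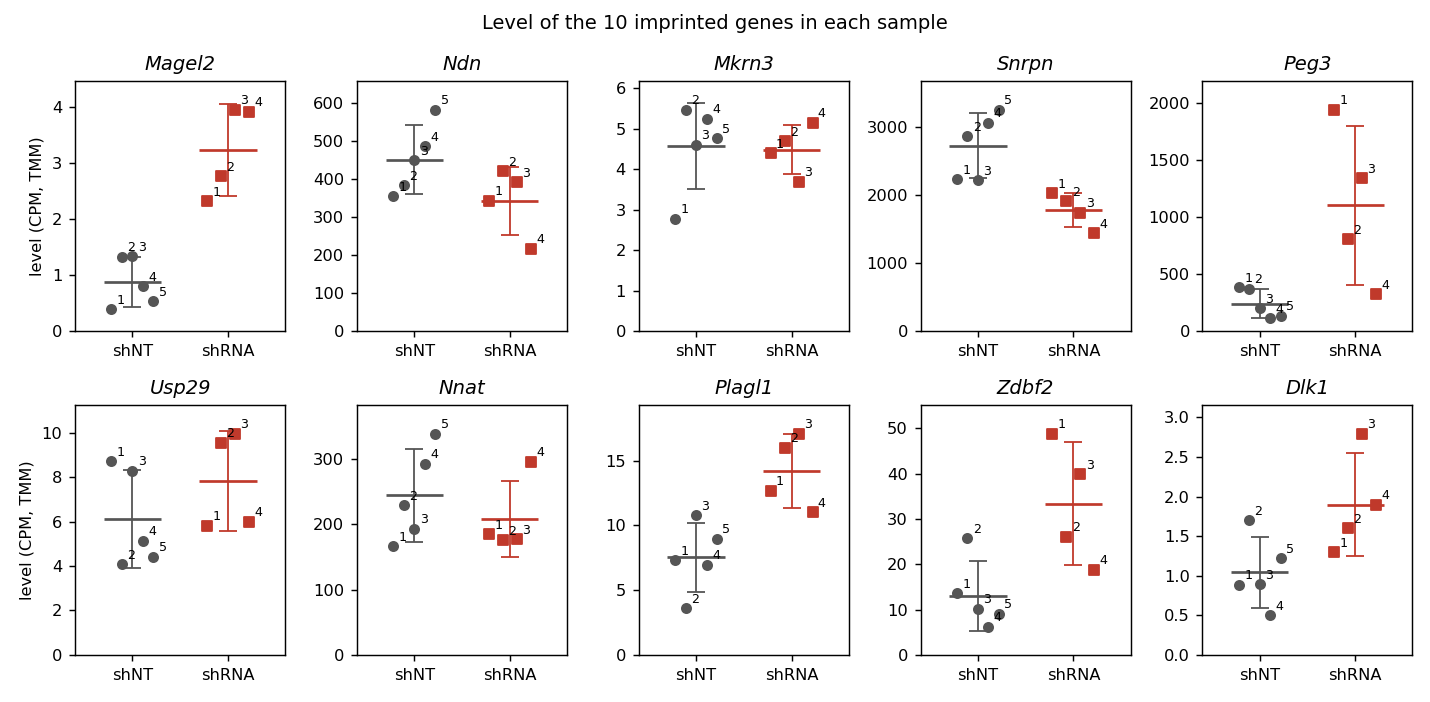
Level in CPM (vertical axis, from 0) of each of the 10 genes in the 5 shNT samples (circles) and 4 shRNA samples (squares), with the replicate number beside each point, the group mean as a horizontal line and the SD as an error bar. The groups are apart in Magel2 and Plagl1, where the shRNA samples are higher, and in Snrpn, where they are lower.

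Magel2, Ndn and Mkrn3 lie next to each other and each consists of a single exon. Magel2 (ENSMUSG00000056972, mm9 chromosome 7 from 69521865 to 69526526, plus strand) encodes a MAGE family protein that works with the ubiquitin ligase TRIM27 on endosomes. Its level was 0.391, 1.33, 1.34, 0.807 and 0.533 CPM in the shNT samples (replicates 1 to 5) and 2.33, 2.77, 3.96 and 3.92 CPM in the shRNA samples (replicates 1 to 4). The lowest shRNA sample exceeded the highest shNT sample, as in 8.97% of all genes tested. Groups without overlap in either direction were found in 3 of 10 members (Magel2, Plagl1 and Snrpn) and in 15.6% of all genes. Group means were 0.880 ± 0.441 CPM for shNT (SD, n = 5) and 3.24 ± 0.823 CPM for shRNA (SD, n = 4), which is a log2FC of 1.88 (SE 0.39, edgeR FDR = 0.0433). Magel2 was among the least abundant members, with 11 to 87 reads per sample. In the 9 fits that each leave out a sample, the log2FC was 1.64 to 2.07, while the FDR lay between 0.0371 and 0.169 and the call was kept in 3 of them (edgeR quasi-likelihood test). The call was lost without shNT replicate 3, 4 or 5 and without shRNA replicate 1, 3 or 4, with FDR values of 0.0744, 0.155, 0.169, 0.086, 0.121 and 0.0752 in that order (edgeR quasi-likelihood test).

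Ndn (ENSMUSG00000033585, chromosome 7 from 69493163 to 69494814, plus strand) encodes necdin, a MAGE protein of postmitotic neurons, and its start lies 28.7 kb from that of Magel2. It had 355, 384, 450, 487 and 582 CPM in the shNT samples and 343, 420.3, 391.7 and 218 CPM in the shRNA samples. The groups overlapped, and shRNA replicate 4 was the lowest of all 9 samples. The means were 452 ± 89.7 CPM for shNT (SD, n = 5) and 343 ± 89.6 CPM for shRNA (SD, n = 4), with a log2FC of -0.40 (SE 0.22, edgeR FDR = 0.221). Mkrn3 (ENSMUSG00000070527, chromosome 7 from 69562479 to 69565039, minus strand), a RING finger ubiquitin ligase known for its part in the timing of puberty, starts 43.2 kb from Magel2. Its level was 4.57 ± 1.06 CPM for shNT (SD, n = 5) and 4.48 ± 0.609 CPM for shRNA (SD, n = 4), with a log2FC of -0.03 (SE 0.24, edgeR FDR = 0.946). The sign of the Mkrn3 value turned under 4 other settings, all within 0.05 of 0.

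Snrpn (ENSMUSG00000000948, chromosome 7 from 67127388 to 67285105, minus strand), in the same imprinted region, encodes the splicing protein SmN. It was the most abundant member, with 2231, 2862, 2217, 3053 and 3245 CPM in the shNT samples and 2021, 1902, 1735 and 1439.5 CPM in the shRNA samples. All 4 shRNA samples lay below all 5 shNT samples, as in 6.68% of all genes tested. The means were 2721 ± 474 CPM for shNT (SD, n = 5) and 1774 ± 252 CPM for shRNA (SD, n = 4), which is a log2FC of -0.62 (SE 0.20) that did not pass the threshold (edgeR FDR = 0.0729). Ube3a, which borders Snrpn and is imprinted toward the maternal copy in neurons, had 121 ± 8.65 CPM for shNT (SD, n = 5) and 131 ± 9.26 CPM for shRNA (SD, n = 4), with a log2FC of 0.11 (edgeR FDR = 0.528).

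Windows of 300 bases around the starts of Magel2 and Ndn are shown because these neighboring single-exon genes had values on opposite sides of 0. They come from RefSeq with build GRCm38.p6 and run from 250 bases before to 50 bases after the start, on the strand of the gene. RefSeq gave at least 1 such window for all 10 members. Capitals mark the motifs searched on both strands: TGACGTCA (the cAMP response element) and its part TGACG, GCCATNTT (the YY1 motif) and TATAAA (the TATA box). TATAAA stands in 13.6% of the 32817 windows of all genes, and among this pair it was found in Magel2 and not in Ndn. In Magel2 it stands nearer to the beginning of the window than to the start of the gene. Whether it acts as a TATA box was not tested. Of the other members only Snrpn held TATAAA, in 1 of its windows. The Magel2 window lies at chr7:62376729-62377028 and the Ndn window at chr7:62348027-62348326, both on the plus strand.
Magel2: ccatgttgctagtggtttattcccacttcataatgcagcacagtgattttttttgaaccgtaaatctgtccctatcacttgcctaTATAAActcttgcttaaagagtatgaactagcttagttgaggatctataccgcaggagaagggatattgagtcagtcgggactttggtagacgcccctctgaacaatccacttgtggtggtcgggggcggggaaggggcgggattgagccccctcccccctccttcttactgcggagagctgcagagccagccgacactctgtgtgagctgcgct
Ndn: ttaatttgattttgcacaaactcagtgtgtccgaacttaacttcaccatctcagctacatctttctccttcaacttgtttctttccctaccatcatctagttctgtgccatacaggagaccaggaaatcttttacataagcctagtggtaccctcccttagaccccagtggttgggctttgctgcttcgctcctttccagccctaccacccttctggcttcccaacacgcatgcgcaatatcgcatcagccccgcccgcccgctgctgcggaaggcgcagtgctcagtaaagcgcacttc
Magel2 held 10 CpG dinucleotides in its window and Ndn 11, beside a median of 7 over all windows.

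Peg3 and Usp29 form a further imprinted domain on chromosome 7. Peg3 (ENSMUSG00000002265, mm9 chromosome 7 from 6656603 to 6683132, minus strand) encodes a large zinc finger protein known for its part in maternal behavior. Its level was 386, 369.9, 199, 115.8 and 137 CPM in the shNT samples (replicates 1 to 5) and 1936.5, 803, 1337 and 323 CPM in the shRNA samples (replicates 1 to 4). The groups overlapped because shRNA replicate 4 lay below shNT replicates 1 and 2, while the other shRNA samples were the highest of all. Peg3 had the largest log2FC of the members, 2.19 (SE 0.50), from 242 ± 128 CPM for shNT (SD, n = 5) to 1100.1 ± 695 CPM for shRNA (SD, n = 4), and missed the threshold narrowly (edgeR FDR = 0.0503). In the fits that leave out a sample, its log2FC was 1.715 to 2.46 and its FDR 0.0374 to 0.169, and it was called in 3 of these 9 fits (edgeR quasi-likelihood test). Those 3 were the fits without shNT replicate 1, shNT replicate 2 or shRNA replicate 4. With the prefix of the sample names (YTa31 or YTa32) as a block Peg3 was also called, with a log2FC of 1.88 (edgeR FDR = 0.0254). In that fit 2.5% of all genes were called upregulated.

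Usp29 (ENSMUSG00000051527, mm9 chromosome 7 from 6913871 to 6916480, plus strand) encodes a ubiquitin-specific protease. The annotation used here gives it a single segment of 2610 bases that begins 231 kb from the start of Peg3, whereas in RefSeq (GRCm38.p6) their starts are 164 bases apart on opposite strands. Usp29 had 8.71, 4.09, 8.30, 5.14 and 4.42 CPM in the shNT samples and 5.82, 9.56, 9.97 and 6.00 CPM in the shRNA samples. Its groups overlapped, with a log2FC of 0.35 (SE 0.29, edgeR FDR = 0.399). The ratio of Peg3 to Usp29 in CPM ran from 22.5 to 90.6 in the shNT samples and from 53.9 to 333 in the shRNA samples.

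Zdbf2 (ENSMUSG00000027520, chromosome 1 from 63319839 to 63361150, plus strand) encodes a zinc finger protein that is known to promote feeding in young mice. Its level was 13.6, 25.8, 10.2, 6.20 and 9.10 CPM in the shNT samples and 48.8, 26.05, 39.8 and 18.8 CPM in the shRNA samples. Only shRNA replicate 4 fell within the shNT range, below shNT replicate 2. The means were 12.97 ± 7.64 CPM for shNT (SD, n = 5) and 33.4 ± 13.5 CPM for shRNA (SD, n = 4), which is a log2FC of 1.365 (SE 0.39) that did not pass (edgeR FDR = 0.0651).

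Peg3 and Zdbf2 varied together across the samples. The correlation of their log2 levels over the 9 samples was 0.955, the highest of the 45 pairs of members, and 0.892 after the group means were taken out, which is a description over libraries that share depth and group. shRNA replicate 1 was the highest and shRNA replicate 4 the lowest of the shRNA samples in both genes. Magel2 did not follow this pattern, with correlations with Peg3 of 0.626 over the samples and -0.176 within the groups. Among 10942 other genes that averaged at least 5 CPM, the 5 most like Peg3 were Trio, the protein kinases Nek1 and Cdc42bpb, Incenp (of the chromosomal passenger complex) and Zfml (a zinc finger protein), with correlations of 0.986 to 0.990 over the 9 samples and 0.966 to 0.983 within the groups. Each of these 5 was closer to Peg3 than Zdbf2 was, so the likeness to Peg3 is not particular to the members. The log2FC values of the 5 genes were 1.66 for Trio, 1.87 for Nek1, 1.81 for Cdc42bpb, 1.67 for Incenp and 1.97 for Zfml. Their FDR values lay between 0.0516 and 0.063 (edgeR quasi-likelihood test). For Magel2 the 5 most alike were Npr3 (a natriuretic peptide receptor), Cnp (a myelin enzyme), Vav3, Gpr37 (a receptor found in oligodendrocytes) and Gabra2 (a GABA receptor subunit), with correlations of 0.918 to 0.954 over the samples and 0.584 to 0.793 within the groups. Of these, Gpr37 and Gabra2 were upregulated, with log2FC values of 1.04 and 0.75 and FDR values of 0.0414 and 0.0403 (edgeR quasi-likelihood test). The genes like Peg3 and like Magel2 were picked by correlation over the samples of both groups. Their fold changes therefore follow in part from that choice and are no separate support for those of Peg3 and Magel2.

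**Figure D2:**
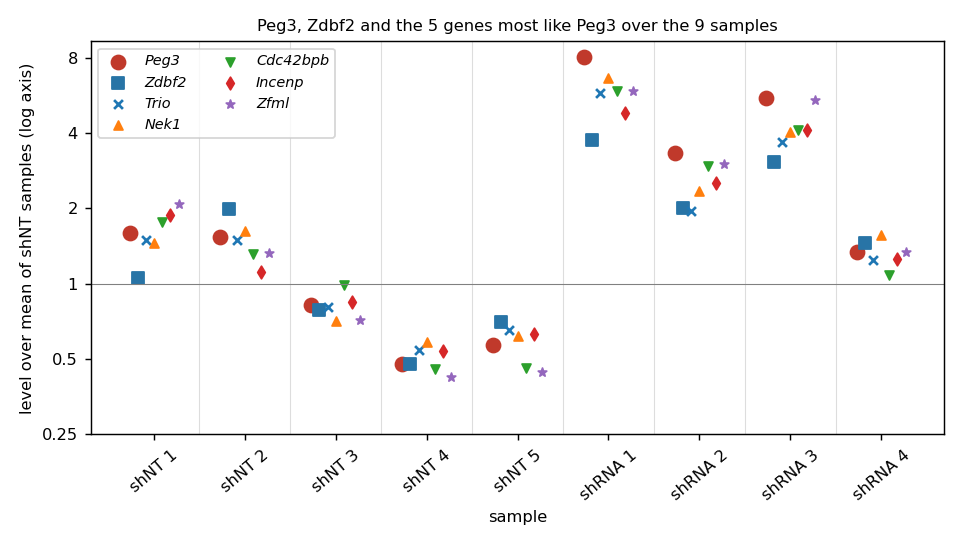
Level of Peg3, Zdbf2 and the 5 genes whose log2 levels correlated best with Peg3 in each of the 9 samples (horizontal axis), as a ratio to the mean of the shNT samples on a log axis. Each point is 1 gene in 1 sample. All 7 genes are highest in shRNA replicate 1, and shRNA replicate 4 lies among or near shNT replicates 1 and 2.

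The start windows of Peg3 and Zdbf2 are shown because the levels of these genes varied together. The Peg3 window lies at chr7:6730370-6730669 (GRCm38.p6, minus strand) and shares 263 bases with that of Usp29 on the other strand. For Zdbf2 RefSeq gave a pair of windows, and the one shown is at chr1:63273019-63273318 (plus strand). Capitals again mark the motifs.
Peg3: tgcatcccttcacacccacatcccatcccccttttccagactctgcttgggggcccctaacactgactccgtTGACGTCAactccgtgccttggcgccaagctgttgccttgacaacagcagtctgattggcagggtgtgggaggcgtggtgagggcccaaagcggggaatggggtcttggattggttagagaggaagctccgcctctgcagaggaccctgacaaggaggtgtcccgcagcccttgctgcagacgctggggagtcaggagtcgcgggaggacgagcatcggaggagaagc
Zdbf2: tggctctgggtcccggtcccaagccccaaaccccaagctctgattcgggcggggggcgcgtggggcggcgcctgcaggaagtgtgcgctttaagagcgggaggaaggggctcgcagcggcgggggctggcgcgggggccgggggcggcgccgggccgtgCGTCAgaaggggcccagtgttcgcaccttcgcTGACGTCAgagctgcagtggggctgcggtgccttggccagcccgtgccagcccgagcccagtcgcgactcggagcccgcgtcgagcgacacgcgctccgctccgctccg
Both windows held TGACGTCA, which stands in 1.79% of all windows, and TGACG, which lies within it, stands in 20.8%. The motifs were chosen after the values were known. The other Zdbf2 window held neither, and the windows of Magel2, Ndn, Mkrn3, Snrpn, Nnat, Plagl1 and Dlk1 did not hold TGACGTCA. Usp29, whose window shares these bases with Peg3, held the motif as well. Its correlation with Peg3 was 0.447 over the 9 samples and 0.222 within the groups, and with Zdbf2 0.26 and -0.0854. The GCCATNTT motif (6.04% of all windows) was found in the Mkrn3 window alone among the members. The match is a description of these letters and was not tied to the counts.

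Plagl1 (ENSMUSG00000019817, chromosome 10 from 12810497 to 12851500, plus strand), also named Zac1, encodes a zinc finger transcription factor that restrains proliferation. Its level was 7.33, 3.63, 10.8, 6.96 and 8.97 CPM in the shNT samples and 12.7, 16.0, 17.1 and 11.005 CPM in the shRNA samples. All shRNA samples lay above all shNT samples, narrowly in the case of shRNA replicate 4. The log2FC was 0.91 (SE 0.275), which did not pass (edgeR FDR = 0.068). Dlk1 (ENSMUSG00000040856, chromosome 12 from 110691033 to 110701546, plus strand), a membrane protein related to the Notch ligands, was near the limit of the filter, with 10 to 53 reads per sample. It had 1.04 ± 0.447 CPM for shNT (SD, n = 5) and 1.90 ± 0.647 CPM for shRNA (SD, n = 4), with overlapping groups and a log2FC of 0.85 (SE 0.38, edgeR FDR = 0.139).

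Nnat (ENSMUSG00000067786, chromosome 2 from 157385814 to 157388258, plus strand) encodes neuronatin, a small membrane protein of the endoplasmic reticulum. It had 167, 229.9, 193, 293 and 339 CPM in the shNT samples and 185, 176, 178 and 296 CPM in the shRNA samples. shRNA replicate 4 stood apart from the other shRNA samples, and the log2FC was -0.23 (SE 0.24, edgeR FDR = 0.515). Nnat lies within Blcap, which runs on the other strand and shares no exon bases with it. A miRNA gene covers 4.76% of the exon bases of Nnat and another 0.782% of those of Zdbf2, and both had 0 reads in every sample. Counting ignored strand, and reads on bases shared between genes may have been given to neither. The 0 therefore does not show that no reads fell on the shared bases. Blcap, whose imprinting in brain affects only some transcripts, had 393 ± 76.4 CPM for shNT (SD, n = 5) and 268 ± 48.9 CPM for shRNA (SD, n = 4), with a log2FC of -0.55 (edgeR FDR = 0.0851).

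**Figure D3:**
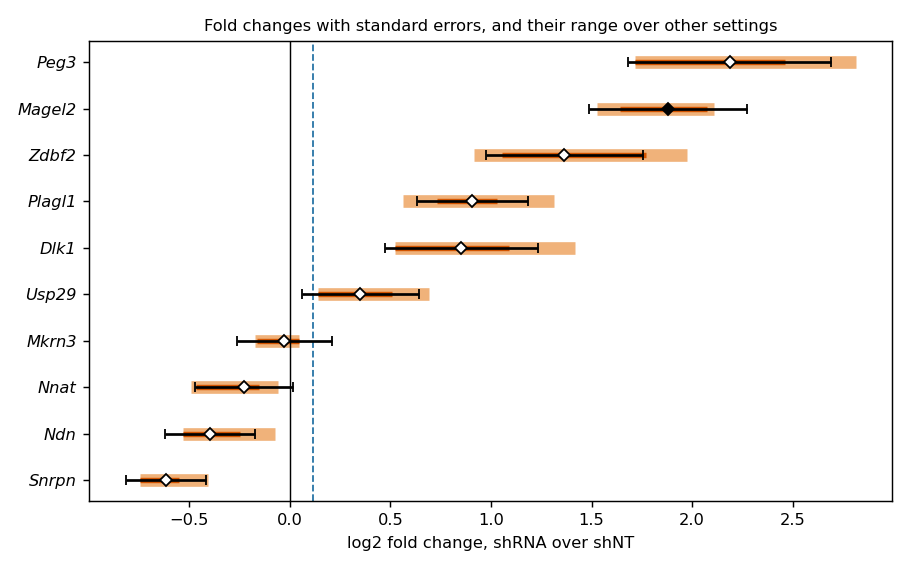
Log2FC of the shRNA over the shNT samples (horizontal axis) for each of the 10 genes, as diamonds with the standard error as a bar, filled where the gene was called. Dark bands show the range with each sample left out in turn, pale bands the range over all other settings too, and the dashed line the median over all genes tested (0.11). Peg3, Magel2, Zdbf2, Plagl1, Dlk1 and Usp29 stay above 0 and Snrpn, Ndn and Nnat below it.

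Levels were compared between members per kb of exon. In the shNT samples Snrpn was at 1238.7 ± 216 CPM per kb (SD, n = 5), followed by Ndn at 273 ± 54.3, Nnat at 134 ± 38.9 and Peg3 at 18.1 ± 9.64 CPM per kb (SD, n = 5). The ranges of these 4 genes over the shNT samples did not overlap. Usp29 (2.35 ± 0.845), Mkrn3 (1.78 ± 0.415), Plagl1 (1.03 ± 0.366) and Zdbf2 (1.02 ± 0.604 CPM per kb, SD, n = 5) came next, and each of these overlapped with its neighbor in the order. Magel2 at 0.189 ± 0.0946 and Dlk1 at 0.184 ± 0.079 CPM per kb (SD, n = 5) were the lowest and overlapped with each other. In the shRNA samples the means per kb of the same 4 genes ran from Usp29 to Zdbf2, Plagl1 and Mkrn3, and the other genes kept their places. Magel2 thus stood at 0.0324% to 0.123% of the level of Ndn per kb in the shNT samples and at 0.234% to 0.639% in the shRNA samples.

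**Figure D4:**
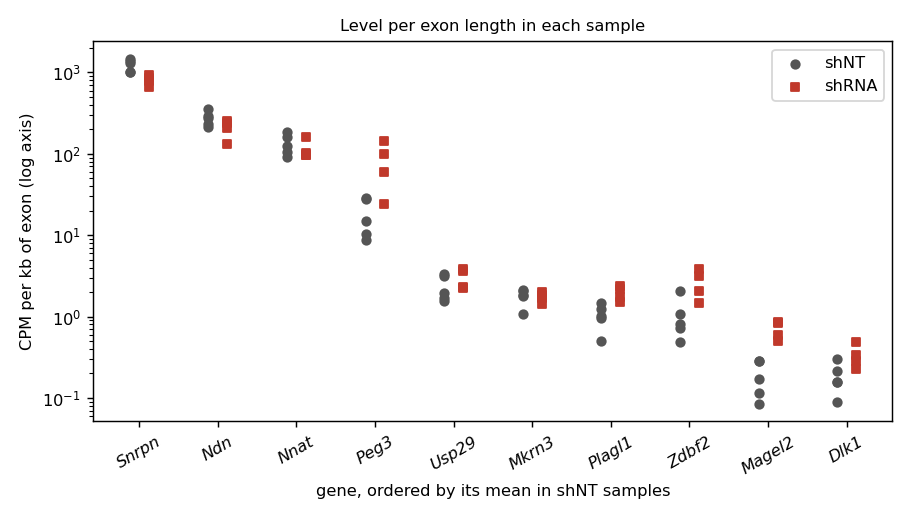
CPM per kb of exon (log axis) of the 10 genes in each shNT sample (circles) and shRNA sample (squares), ordered by the mean of the shNT samples. By group mean Snrpn, Ndn and Nnat are the highest and Magel2 and Dlk1 the lowest in both groups, while in shRNA replicates 1 and 3 Peg3 lies above Nnat.

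The sample names carry the prefixes YTa31 (3 shNT and 3 shRNA samples) and YTa32 (2 and 1). What the prefixes stand for is not given. Peg3 was 4.27-fold higher in the shRNA samples within the first set (318 to 1359 CPM) and 2.56-fold higher within the second (126.4 to 323 CPM). Its groups did not overlap within either set, although they did over both. For Magel2 the ratios were 2.96 and 5.86, for Zdbf2 2.31 and 2.46, for Plagl1 2.10 and 1.38, and for Snrpn 0.774 and 0.457. Within both sets all shRNA samples lay above all shNT samples in 4 members, Magel2, Peg3, Plagl1 and Zdbf2, and in 10.6% of all genes tested. Below lay 1 member, Snrpn, and 7.19% of all genes. In Ndn the ratio was 0.972 in the first set and 0.407 in the second, where the only shRNA sample is replicate 4.

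Exon length moved with the fold change over all genes. The median log2FC was -0.31 for the 3074 genes with under 2 kb of exons and 0.49 for the 1583 genes with over 8 kb, of which 6.13% were upregulated. Ndn and Nnat are in the first class and Peg3 (13314 bases) and Zdbf2 (12659 bases) in the second, while Magel2 has 4662 bases. Of the genes most like Peg3, Trio has 12368 bases, Nek1 7886, Cdc42bpb 6718, Zfml 6479 and Incenp 3229, beside a median of 3622 over the genes tested. Whether exon length accounts for the likeness of Peg3 and Zdbf2 was not tested. In a fit corrected for the trend with exon length, 0 genes were called (4303 at an unadjusted p under 0.05), and the log2FC values were 1.77 for Peg3, 1.67 for Magel2, 0.915 for Zdbf2, 0.56 for Plagl1 and -0.52 for Snrpn. Magel2 had an FDR of 0.0906 in that fit (edgeR quasi-likelihood test).

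Among 47 other genes reported as imprinted in some mouse tissue, 35 were tested and 0 were called (edgeR quasi-likelihood test). At an unadjusted p under 0.05 there were 7 with higher and 5 with lower levels, against 20.7% and 13.4% of all genes tested. The likelihood ratio test called 4 upregulated and 2 downregulated, DESeq2 4 and 3, and limma voom 6 and 1. Over all genes tested these tests called 11.2%, 10.2% and 15.3% upregulated and 3.6%, 5.53% and 4.1% downregulated. Of the 35 genes, 20 had positive and 15 negative values, with a median log2FC of 0.08. The lowest unadjusted p values belonged to Gab1, an adaptor of receptor tyrosine kinases, Commd1, which acts in copper and endosomal transport, and Ppp1r9a, an actin-binding protein of synapses. Gab1 had 9.14 ± 2.86 CPM for shNT (SD, n = 5) and 21.7 ± 10.9 CPM for shRNA (SD, n = 4), which is a log2FC of 1.25. Commd1 had 44.5 ± 8.28 CPM for shNT (SD, n = 5) and 29.6 ± 4.28 CPM for shRNA (SD, n = 4), which is a log2FC of -0.59. Ppp1r9a had 603 ± 821 CPM for shNT (SD, n = 5) and 4105 ± 2346 CPM for shRNA (SD, n = 4), which is a log2FC of 2.77. Their FDR values were 0.058, 0.0651 and 0.0694 (edgeR quasi-likelihood test), so none of these passed.

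Of 13 imprinted noncoding RNAs listed, 6 were matched by name and 4 tested, and 0 were called by the edgeR quasi-likelihood test, the likelihood ratio test or DESeq2, 1 by limma voom, and 1 had an unadjusted p under 0.05. Meg3, the maternally expressed noncoding RNA of the Dlk1 locus, had 648 ± 509.8 CPM for shNT (SD, n = 5) and 1444 ± 1306 CPM for shRNA (SD, n = 4), with overlapping groups and a log2FC of 1.16 (edgeR FDR = 0.199). Rian and Mirg of the same locus had log2FC values of 0.68 and 0.88, with FDR values of 0.121 and 0.364 (edgeR quasi-likelihood test). Of 10 other MAGE family genes, 7 were tested and 1 was called (1.75% of all genes tested). This was Tro, which encodes the cell adhesion protein trophinin and was upregulated from 78.1 ± 22.7 CPM for shNT (SD, n = 5) to 158 ± 20.99 CPM for shRNA (SD, n = 4), which is a log2FC of 1.01 (edgeR FDR = 0.0429). The Ndnl2 value was -0.415 and the Mageh1 value -0.15 on the same scale. Of 13 matched partners of Magel2 in the TRIM27 ligase, the WASH complex and retromer, 0 were called by the edgeR quasi-likelihood test or the likelihood ratio test, DESeq2 called 1 downregulated and limma voom 1 upregulated, and the median log2FC was -0.08. At an unadjusted p under 0.05 there were 2 with higher and 3 with lower levels, against 20.7% and 13.4% of all genes tested. The lowest unadjusted p values there were those of D6Wsu116e (log2FC 0.54, a WASH complex subunit gene), Ccdc53 (-0.58, a further subunit) and Vps29 (-0.49, of retromer), with FDR values of 0.0734, 0.074 and 0.0882 (edgeR quasi-likelihood test).

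Other tests called more members. The likelihood ratio test of edgeR called Magel2, Peg3, Plagl1 and Zdbf2 upregulated, 4 of 10 members against 11.2% of all genes, and Snrpn downregulated, against 3.6%. DESeq2 called the same 4 (10.2% of all genes) and Snrpn (5.53%). limma voom with quality weights called those 4, Usp29 and Dlk1 upregulated (15.3% of all genes) and Snrpn downregulated (4.1%).

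Gene counts per sample ran from 18281719 to 34578837. Ablim3 itself, the target in DG, had 16.9 ± 5.16 CPM for shNT (SD, n = 5) and 18.5 ± 3.42 CPM for shRNA (SD, n = 4), a log2FC of 0.13 (edgeR FDR = 0.701). The virus went into the DG and the RNA was isolated by the ribosome tag from CA3/CA2 tissue, so this level does not check the knockdown. Pvalb, the marker by which the cells were tagged, had 998 ± 287 CPM for shNT (SD, n = 5) and 526 ± 163 CPM for shRNA (SD, n = 4), which is a log2FC of -0.92 (edgeR FDR = 0.0678). Over all genes tested the median log2FC was 0.11 and 6337 of 15069 values were negative. At an unadjusted p under 0.05, 13.4% of all genes were lower (edgeR quasi-likelihood test). All 12 PV IN markers were detected and had negative values, with a median log2FC of -0.35. The edgeR quasi-likelihood test called 0 of these, the likelihood ratio test 2, DESeq2 2 and limma voom 2 downregulated, and 3 had an unadjusted p under 0.05. Their summed level ran from 5578 to 7782 CPM in the shNT and from 3616 to 6821 CPM in the shRNA samples (summed marker levels are CPM without TMM). In bulk samples fewer cells of a type and less RNA per cell cannot be told apart. Called upregulated were 2 of 8 DG granule cell markers (summed level 67.6 to 141 CPM with shNT and 185 to 267 CPM with shRNA), 1 of 8 CA3 and CA2 pyramidal neuron markers (551 to 1412 and 1420.45 to 1945 CPM), 2 of 6 oligodendrocyte precursor markers (66.5 to 114 and 99.96 to 163 CPM) and 1 of 7 markers of other interneurons (490.2 to 978 and 346 to 661 CPM). Of all genes tested 1.74% were called upregulated, and 20.7% were higher at an unadjusted p under 0.05 (edgeR quasi-likelihood test). At an unadjusted p under 0.05, with higher levels in the shRNA samples, there were 5 DG granule cell, 6 pyramidal neuron, 5 oligodendrocyte precursor and 2 other interneuron markers. In that order the likelihood ratio test called 4, 6, 5 and 1 upregulated, DESeq2 4, 5, 4 and 1, and limma voom 5, 7, 5 and 4. These tests called 11.2%, 10.2% and 15.3% of all genes upregulated. No marker of astrocytes (of 10), oligodendrocytes (8), microglia (8), endothelial cells (9), meningeal and mural cells (9), choroid plexus and ependyma (6) or hypothalamic neurons (2 of 10 tested) was called by the edgeR quasi-likelihood test. At an unadjusted p under 0.05 in the same test, with higher levels in the shRNA samples, there were 9 astrocyte, 7 oligodendrocyte, 3 microglia and 1 choroid plexus or ependyma markers, and 0 of the other 3 lists. The likelihood ratio test called 9, 4, 2 and 1 of these upregulated, DESeq2 4, 2, 1 and 1, and limma voom 5, 8, 3 and 2, beside 1 meningeal or mural marker that limma voom called downregulated. The astrocyte sum was 523 to 990 CPM with shNT and 840 to 1058 CPM in shRNA replicates 1 to 3, but 5663 CPM in shRNA replicate 4. The endothelial sum was 97.0 to 348 CPM with shNT and 60.9 to 137 CPM in shRNA replicates 1 to 3, but 1006 CPM in shRNA replicate 4. The sums in the shNT and shRNA samples were 752 to 2690 and 1418 to 3750 CPM for oligodendrocytes and 67.0 to 138 and 102 to 131 CPM for microglia. The meningeal and mural sum was 37.0 to 168 CPM with shNT and 28.1 to 50.1 CPM in shRNA replicates 1 to 3, but 325 CPM in shRNA replicate 4. The choroid plexus and ependyma sum was 17.0 to 25.1 CPM with shNT and 16.9 to 21.6 CPM in shRNA replicates 1 to 3, but 88.9 CPM in shRNA replicate 4. The hypothalamic sum was 2.32 to 6.66 CPM with shNT and 2.47 to 3.73 CPM in shRNA replicates 1 to 3, and 6.40 CPM in shRNA replicate 4. No marker in these lists was at 0 in every sample, and the part of these cells in the levels of the imprinted genes was not tested. Without shRNA replicate 4 the log2FC was 1.75 for Magel2, 2.46 for Peg3, 1.52 for Zdbf2 and -0.55 for Snrpn.

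Reads outside annotated exons made up 9.76% to 18.6% of uniquely aligned reads in the shNT samples and 12.4% to 27.2% in the shRNA samples (exact two-sided permutation test of the means, p = 0.151). With this share as a covariate the log2FC values were 1.755 for Magel2 and 2.195 for Peg3. As a measure of reads on genes that brain scarcely uses, chosen after the values were seen, 1087 olfactory receptor genes together gave 0.00182 to 0.00247 CPM per kb in the shNT samples and 0.00265 to 0.00715 CPM per kb in the shRNA samples. The level of Magel2 per kb was 39.4 to 140 times this value in the shNT samples and 118 to 320 times in the shRNA samples.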

How the data were processed

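Translating ribosome affinity purification followed by RNA-seq was carried out by the authors on tissue of CA3/CA2, with 5 shNT and 4 shRNA samples, each a pool of 6 mice. The deposited values are counts, and per the labels and the study's methods the authors aligned reads of 50 bases to mm9 with STAR and counted them per gene with HTSeq 0.6.0 without regard to strand. The annotation they counted on is not given in the sources used here. The GENCODE vM1 annotation (mm9) named 37205 of 37620 identifiers. Rows of reads on no gene were left out of library sizes, and reads outside annotated exons were 9.76% to 27.2% of uniquely aligned reads. Gene counts of 18281719 to 34578837 set the precision.

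Counts were tested with edgeR 4.0.16 in R 4.3.3 (TMM, quasi-likelihood test, condition only) over 15069 genes that reached 1 CPM in 1 or more samples, and 22551 were removed. Genes were called at an FDR under 0.05 and at least 1.5-fold. Alternatives used edgeR's likelihood ratio and exact tests, DESeq2 1.42.0, limma 3.58.1 (voom), other scalings and filters, blocks, an exon length correction and samples left out. The code was tested on simulated counts. Correlations used log2 CPM with a prior count of 2. The members and lists were chosen with earlier results of these data known. Named beside the members were genes called in each list or, under 3 called, those with the lowest p values up to 3, the 5 genes most correlated with Magel2 or Peg3 among those averaging at least 5 CPM, and overlapping genes. The olfactory receptor genes, the promoter motifs and Ube3a and Blcap were chosen after values were seen.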

Additional observations from a re-analysis of the deposited data

Results flagged for a closer look

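Nnat in shRNA replicate 4 stood apart from its group, with 296 CPM beside 176 to 185 CPM in the other 3 shRNA samples. Reads outside annotated exons in shNT replicate 2 also stood apart, at 18.6% beside 9.76% to 11.3% in the other shNT samples. Dixon's test was applied to 24 groups and marked these 2, where chance marks about 1 in 20. Nnat was -0.466 on the log2 scale without shRNA replicate 4, with an FDR over the 9 fits that leave out a sample of 0.22 to 0.695 (edgeR quasi-likelihood test).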

How the results depend on the processing

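Every member except Mkrn3 kept the direction of its log2 fold change in all 26 other settings. Mkrn3 turned to 0.033 with library size scaling, 0.01 with the name set as a block, 0.009 with the exon length correction and 0.046 without shNT replicate 2, and lay between -0.163 and 0.046 with 1 sample left out. The number of members called upregulated was 1 and became 4 with the likelihood ratio test, the exact test and DESeq2, and 6 with limma voom. It was 2 (Magel2 and Peg3) without a low-count filter (2.08% of all genes) and with the name set as a block (2.5%). It was 0 with library size or upper quartile scaling, filterByExpr, the YTa31 samples alone, the share outside exons as a covariate and the exon length correction. In each of those settings with 0 members, 0 genes of the whole series were called. The number of members was 4 with shNT replicate 2 and shRNA replicate 4 both left out (4.75% of all genes), a setting chosen after the values were seen. With 1 sample left out it lay between 0 and 3. It was 2 without shNT replicate 1 (6.68% of all genes) and 3 without shNT replicate 2 (3.21%). It was 0 without shNT replicates 3, 4 or 5 or shRNA replicates 1 or 3, where 0 genes of the whole series were called. Without shRNA replicate 4 Peg3 was called and Magel2 was not (0.978% of all genes). The number called downregulated was 0 and became 1, Snrpn, with the likelihood ratio test, the exact test, DESeq2 and limma voom, and was 0 with each sample left out. The median log2 fold change of the members was 0.601, 0.854 with limma voom, and between 0.332 (without shRNA replicate 3) and 0.659 with 1 sample left out. The cause of these differences was not tested.

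Over all genes the number called upregulated was 262 and ranged from 0 (library size only, with 5258 genes at an unadjusted p under 0.05) to 2301 (limma voom), and that called downregulated was 2 and ranged from 0 to 833 (DESeq2). The median log2 fold change over all genes was 0.114 with TMM, 0.168 with library size only, 0.069 with DESeq2 size factors and 0.034 after filterByExpr. The FDR of Magel2 over the settings other than leaving out a sample lay between 0.00075 and 0.411, and it was called in 10 of these 17.

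With the replicate number as a block (replicate block, replicates 1 to 4), 0 members and 34 genes were called upregulated, and Magel2 was at 1.75 on the log2 scale (edgeR FDR = 0.229). Deviations from the group means of samples with the same number correlated at -0.267, -0.641, 0.486 and -0.181. These values do not show a pairing by number, but a check on so few samples cannot exclude one. Magel2 and Dlk1 rest on 10 to 87 reads per sample, which limits the precision of their levels.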

Other observations

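The 10 imprinted genes together took 0.297% to 0.43% of the reads on genes in the shNT samples and 0.282% to 0.451% in the shRNA samples. Snrpn alone took 0.213% to 0.317% and 0.162% to 0.2%, and Peg3 took 0.0111% to 0.041% and 0.0392% to 0.192%. Ndn and Snrpn varied together, with a correlation of their log2 levels of 0.789 over the 9 samples and 0.701 within the groups, whereas Ndn and Magel2 had -0.551 and -0.162. Nnat and Peg3 varied in opposite directions, at -0.699 over the samples and -0.783 within the groups. The share of reads outside exons had a correlation of -0.844 with Ndn, 0.559 with Magel2, 0.301 with Peg3 and -0.0383 with Plagl1 over the 9 samples. Within the shNT and the shRNA samples the values were -0.391 and -0.966 for Ndn and 0.402 and 0.162 for Magel2. For Peg3 they were 0.582 and -0.587, and for Plagl1 -0.905 and -0.98. These are descriptions over 9 libraries of 2 groups.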
